A study of Mus musculus with 8 samples.

Results

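The comparison described here was OGD_Con against Con, the response of cultured mouse microglia to oxygen-glucose deprivation (OGD) when the cells carried a control plasmid. Its members were chosen by sample title, and they were 4 of the 8 libraries of the series, 2 labelled OGD_Con and 2 labelled Con. Values are in FPKM, fragments scaled to the length of the gene model and to the library's mapped fragments. The test covered named gene models that reached 1 FPKM in 2 or more of these 4 libraries, 10794 in all, of which 706 had joined names, meaning 1 value for several genes. OGD_Con cells were primary microglia from brains of C57BL/6 mice at postnatal day 2 that had been transfected with ACT-Con, the control for a CRISPR activation plasmid aimed at Parp14, for 24 h and had then undergone OGD for 6 h. Con cells were the same kind of microglia with the same control plasmid and no OGD in their titles. The other 4 libraries, labelled OGD_PARP14 and PARP14, carried the activation plasmid ACT-PARP14. The treatment text of every sample mentions OGD, and only the titles separate the groups, so the groups rest on the titles. The series' design text speaks of 2 independent experiments, but nothing ties a library to an experiment, animal or culture, and the p-values below therefore rest on how these libraries differ, which may be a technical spread only. The cells came from newborn mice and were grown in medium with serum, and no label says how pure they were.

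Microglia are the resident macrophages of the brain, and OGD, in which oxygen and glucose are both withdrawn from the medium, is the usual culture model of ischaemic stroke. With little oxygen, prolyl hydroxylases stop marking the hypoxia-inducible factor HIF-1 alpha for destruction, and HIF-1 then switches on genes for glucose uptake, glycolysis and blood vessel growth. Loss of nutrients also activates the integrated stress response, in which the transcription factor ATF4 raises genes for amino acid uptake and synthesis. Interferon-stimulated genes are a separate antiviral programme, which interferon signalling keeps on at a low level in resting macrophages.

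The steps between low values put depth at 15.1 and 15.0 M fragments in OGD_Con and 15.6 and 14.1 M fragments in Con, so that 1 FPKM over 1 kb rested on 14 to 16 fragments. The correlation of log2 values across genes, which are not independent replicates, was 0.984 between the OGD_Con libraries, 0.983 between the Con libraries and 0.944 to 0.954 between groups. The labelled cell type was checked with 13 microglia and macrophage markers, all of which were tested. Their summed level was 4990 and 4790 FPKM in OGD_Con and 5130 and 5220 FPKM in Con. Markers of other brain cells were low, with summed astrocyte markers at 5.06 and 5.80 FPKM in OGD_Con and 4.54 and 5.88 FPKM in Con, and summed oligodendrocyte lineage markers at 22.4 and 21.8 FPKM in OGD_Con and 28.4 FPKM in each Con library, where Cnp was the called member (log2 fold change −0.53). The part of these other cells in the results was not tested. Summed markers of peripheral leukocytes were at 33.1 and 30.5 FPKM in OGD_Con and 29.2 and 31.0 FPKM in Con, nearly all of it from Cd79b, the only tested member, and 7 of the 11 were at 0 in all 4 libraries. Parp14 itself, the target of the activation plasmid that none of these cells carried, shares its model with Gm49730, and that model had 12.5 and 53.7 FPKM in OGD_Con and 61.4 and 50.7 FPKM in Con. The groups overlapped, and OGD_Con replicate 1 was far below the other 3 libraries (log2 fold change −1.06, SE 0.69, limma adjusted p = 0.326).

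Hypoxia, glycolysis, amino acid stress and clock genes rose in OGD_Con, and interferon-stimulated genes and Tnf fell. By limma with Benjamini-Hochberg adjustment over all models, 933 models (8.64%) were higher in OGD_Con and 1002 (9.28%) were lower, together 1935 (17.9%) of those tested. The changes upward were the larger ones, with 267 of the higher models (28.6%) at a log2 fold change of at least 1 and 139 of the lower ones (13.9%) at −1 or less. At 2 log2 units or more there were 65 higher and 15 lower models. All fold changes below are differences of log2(FPKM + 1), and the added 1 makes the change of low genes look smaller than it was. Models that rose had a median level of 9.07 FPKM in OGD_Con and 4.30 FPKM in Con, and those that fell had 5.98 FPKM in OGD_Con and 10.1 FPKM in Con. Lists whose share of called members lies near those percentages are given as values only. Both OGD_Con libraries lay above both Con libraries in 30.8% of all models tested and below them in 36.1%. Groups without overlap were therefore common. Of the higher models 145 were under 1 FPKM in both Con libraries and passed the filter through OGD_Con alone, and 71 of the lower ones passed it through Con alone. In bulk RNA fewer cells of a type and less RNA per cell cannot be told apart, and FPKM gives each gene's share of the RNA and not its amount per cell.

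**Figure D1:**
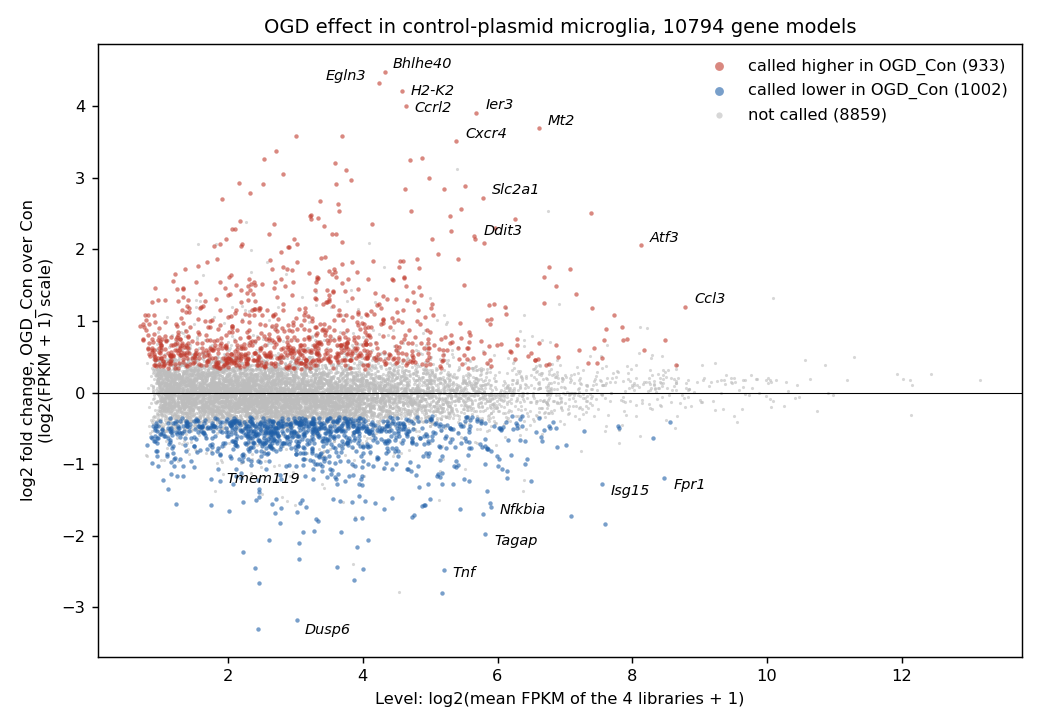
Each point is 1 of 10794 gene models, with its level (log2 of the mean FPKM of the 4 libraries plus 1) on the horizontal axis and its log2 fold change of OGD_Con over Con on the vertical axis; red models were called higher (933), blue ones lower (1002) and grey ones neither. The largest fold changes are upward and reach 4.48 for Bhlhe40, while Tnf and Dusp6 lie among the lowest points.

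These counts rest on both libraries of each group. With 3 libraries the spread is estimated from a single pair, and the calls fell to 215 without OGD_Con replicate 1, 92 without OGD_Con replicate 2, 181 without Con replicate 1 and 274 without Con replicate 2, with 67 models called in all 4 of these fits. No model called with all 4 libraries changed sign in any of them. Where both libraries of a group lay above both of the other this was fixed in advance, so it is no check.

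The 14 largest rises among called models that averaged at least 5 FPKM in the higher group and were not predicted genes were in Bhlhe40, Egln3, H2-K2, Ccrl2, Ier3, Mt2, Nr1d1, Vegfa, Cxcr4, Ciart, Hilpda, Rasd2, Gadd45a and Gdf15, with log2 fold changes of 4.48 to 3.20. The 14 largest falls were in Dusp6, Malat1, F630028O10Rik with Mir223, Tnf, Slco4a1, Ifit1bl1, Filip1l, Ccl7, Ifit2, Iigp1, Tgtp2, Ch25h, Tagap and Trib1, with log2 fold changes of −3.17 to −1.94. F630028O10Rik has the name of a predicted gene and was kept because its joined model also carries Mir223. In all 28 both libraries of one group were above both of the other, which the choice of genes required. Of the falls Ifit1bl1 (adjusted p = 0.0494), Tgtp2 (adjusted p = 0.0455) and Ch25h (adjusted p = 0.0248) were called in none of the fits without 1 library. Filip1l stands for the model on the plus strand, and a more abundant model of that name on the minus strand, with 130 and 108 FPKM in OGD_Con and 109 and 119 FPKM in Con, did not pass the test (0.05, adjusted p = 0.779). Ifit1bl1 has 2 other models, which did not pass the test either (−1.57 and −1.02).

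**Figure D2:**
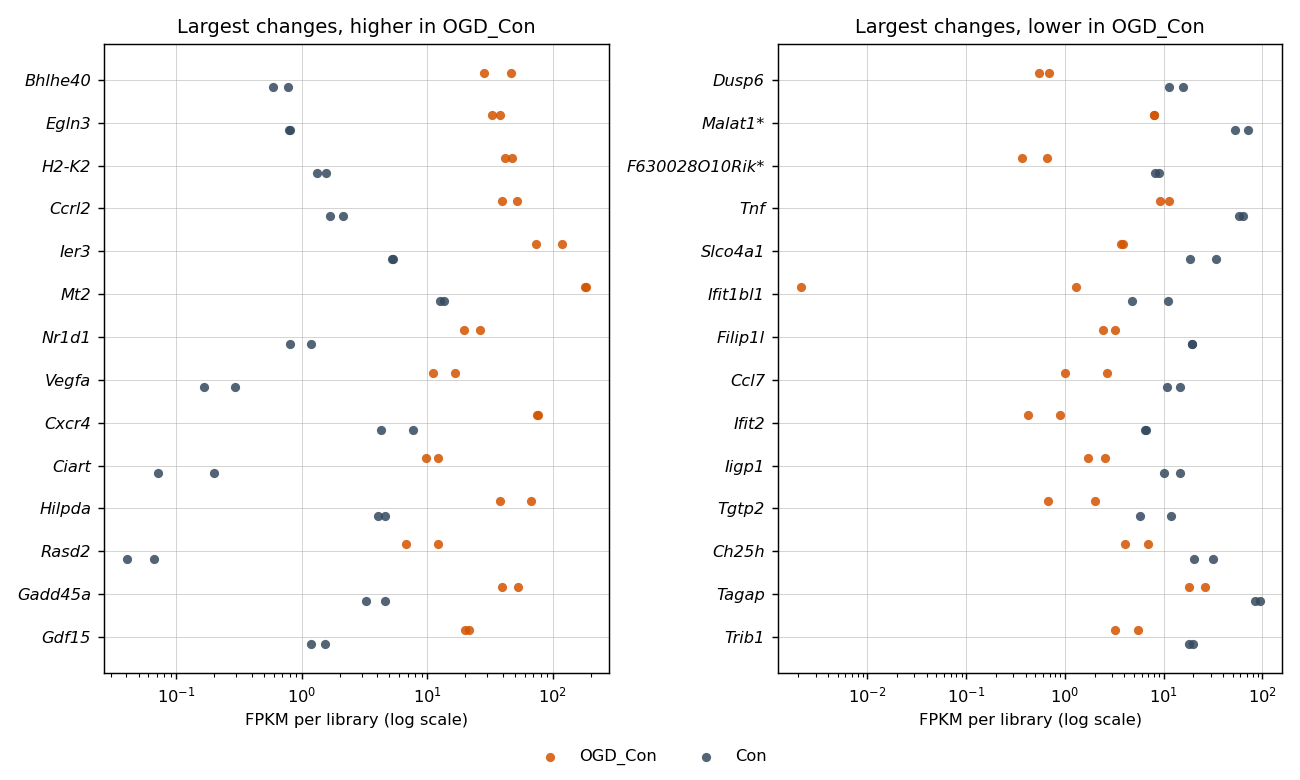
FPKM of each library on a log axis for the 14 models with the largest rises (left panel) and the 14 with the largest falls (right panel), with OGD_Con (orange) drawn above Con (dark blue) in each row; an asterisk marks a model with joined names. OGD_Con and Con points are apart in every row, and the spread within a group is widest for Ifit1bl1, whose OGD_Con libraries had 0.00211 and 1.31 FPKM.

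Genes known as targets of HIF-1 rose. Of 28 listed genes 24 were tested, and 17 were higher and 1 was lower, with a median log2 fold change of 1.03 beside −0.02 over all models. Egln3, one of the prolyl hydroxylases that mark HIF-1 alpha, had 32.5 and 37.7 FPKM in OGD_Con and 0.801 and 0.797 FPKM in Con. Both OGD_Con libraries were far above both Con libraries (log2 fold change 4.32, SE 0.10, adjusted p = 0.0025). Vegfa, the growth factor that draws in new blood vessels, had 11.2 and 16.6 FPKM in OGD_Con and 0.295 and 0.165 FPKM in Con, again without overlap (3.58, SE 0.20, adjusted p = 0.00537). Hilpda, which coats lipid droplets and blocks their breakdown, had 38.0 and 66.6 FPKM in OGD_Con and 4.07 and 4.6 FPKM in Con. OGD_Con replicate 2 was the higher of the pair for Hilpda, and the groups did not overlap (3.27, SE 0.28, adjusted p = 0.00963). Bnip3, which directs mitochondria to autophagy, had 75.9 and 83.7 FPKM in OGD_Con and 9.30 and 10.5 FPKM in Con (2.89, SE 0.10, adjusted p = 0.00288). Ankrd37 (3.05), the adenylate kinase Ak4 (2.92), the disulfide oxidase Ero1l (2.84) and Narf (2.21) rose by over 2 log2 units as well. The collagen-modifying enzymes were split: P4ha1 (0.85), P4ha2 (0.72) and Lox (0.58) rose, and the lysyl hydroxylase Plod1 fell by 0.75. Adm, Car9 and Ndrg1, which belong to the same list, did not pass the test, with log2 fold changes of −0.18, 0.31 and 0.33. With 1 library left out, 10 members were called without OGD_Con replicate 1, 9 without OGD_Con replicate 2, 9 without Con replicate 1 and 11 without Con replicate 2.

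Promoter sequence is shown for 2 of these genes, to let the HIF motif be seen in place. The windows are 300 bases, from 250 before to 50 after the annotated start, taken from RefSeq on GRCm38.p6 and printed along the gene's own strand. Capitals mark ACGTG or GCGTG, the core of the hypoxia response element, on either strand, so that CACGT and CACGC are the same letters read on the other strand. Ankrd37 (chr8:45999801-46000100, minus strand) holds 4 matches, and Bnip3 (chr7:138909457-138909756, minus strand) holds 5.
Ankrd37: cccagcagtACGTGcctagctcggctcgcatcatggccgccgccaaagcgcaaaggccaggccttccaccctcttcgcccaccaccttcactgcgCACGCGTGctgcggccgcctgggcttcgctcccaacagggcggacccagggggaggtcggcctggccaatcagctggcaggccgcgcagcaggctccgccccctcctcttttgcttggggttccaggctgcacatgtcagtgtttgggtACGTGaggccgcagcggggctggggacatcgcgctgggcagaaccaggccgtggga
Bnip3: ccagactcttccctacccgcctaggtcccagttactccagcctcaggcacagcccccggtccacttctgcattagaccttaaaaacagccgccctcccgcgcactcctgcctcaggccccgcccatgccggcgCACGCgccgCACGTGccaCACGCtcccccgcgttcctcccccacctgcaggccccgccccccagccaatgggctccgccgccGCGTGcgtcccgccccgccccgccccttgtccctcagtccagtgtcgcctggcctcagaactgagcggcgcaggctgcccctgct
All 14 called hypoxia genes with a promoter in the table held the motif, as did 16 of 18 called glycolysis genes. Other called lists that rose held it about as often: 15 of 17 integrated stress response, 7 of 8 clock and 3 of 3 zinc genes. Of called genes that fell, 10 of 25 interferon-stimulated and 2 of 6 GBP and IRG genes held it. The core is short and common: 68.4% of tested genes and 46.7% of all genes in the promoter table had it, and it lies inside the E-box CACGTG. A match is a description of these letters and says nothing on binding.

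The oxygen sensing machinery around HIF-1 moved less than its targets. Of 11 tested HIF subunits and regulators 2 rose, Egln3 and Egln1 (log2 fold change 1.04, SE 0.08, adjusted p = 0.00763). Hif3a, which encodes an alpha subunit with inhibitory splice forms, fell to 4.23 and 3.80 FPKM in OGD_Con, against 8.33 and 7.03 FPKM in Con, by 0.79 log2 units (SE 0.11, adjusted p = 0.0216). Hif1a did not pass the test (0.29, adjusted p = 0.0935), nor did Egln2 (−0.44, adjusted p = 0.0518) or Vhl (−0.16). In the fits without 1 library, 1 to 2 members of this list were called. Another family of oxygen-dependent enzymes, the JmjC histone demethylases, had 6 of 17 members higher and none lower: Kdm3a (1.68), Kdm6b (1.36), Jmjd6 (1.21), Kdm5b (1.08), Kdm7a (0.93) and Kdm4b (0.89). Kdm3a, which removes methyl groups from histone H3 lysine 9, had 20.4 and 23.4 FPKM in OGD_Con and 6.41 and 5.85 FPKM in Con. Without OGD_Con replicate 2 none of the JmjC genes was called, and without OGD_Con replicate 1, Con replicate 1 and Con replicate 2 there were 4, 2 and 3.

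Every step of glycolysis from glucose entry to lactate export had a member that rose. Of 25 tested genes 18 were higher and none was lower, with a median log2 fold change of 1.08. Slc2a1, the glucose transporter GLUT1, had 92.5 and 95.9 FPKM in OGD_Con and 14.3 and 12.6 FPKM in Con. The OGD_Con libraries agreed closely and stood well apart from Con (2.72, SE 0.09, adjusted p = 0.00288). Hk2, the hexokinase that traps glucose in the cell, had 103 and 155 FPKM in OGD_Con and 23.7 and 21.7 FPKM in Con, without overlap (2.42, SE 0.21, adjusted p = 0.0101). The lactate exporter Slc16a3 had 22.4 and 18.6 FPKM in OGD_Con and 1.96 and 1.70 FPKM in Con, the largest log2 fold change of the list (2.92, SE 0.12, adjusted p = 0.00394). The related transporter Slc16a1 rose by 2.36, and among enzymes Pfkfb3 (1.87), which makes the activator of phosphofructokinase, and Pfkl (1.84) rose most after Hk2. The other steps rose by less, with Tpi1 at 1.49, Ldha at 1.38, Eno1 at 1.20, Pgam1 at 1.08, Pgk1 at 0.92, Aldoa at 0.59, Gpi1 at 0.56 and Pkm, in a joined model, at 0.49. Pdk1, a kinase that inhibits pyruvate dehydrogenase, rose by 1.17 (10.4 and 10.5 FPKM in OGD_Con, 4.01 and 4.16 FPKM in Con). The Gapdh model held only 13.4 and 16.4 FPKM in OGD_Con and 4.70 and 6.46 FPKM in Con and may not hold all fragments of this gene. The hexokinases Hk1 (0.10) and Hk3 (−0.21), the glycogen phosphorylase Pygl (0.03) and Pfkfb4 (−0.07) did not pass the test. In fits of 3 libraries, 7 members were called without OGD_Con replicate 1, 6 without OGD_Con replicate 2, 8 without Con replicate 1 and 9 without Con replicate 2.

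Few genes of oxidative phosphorylation changed. Of 73 tested nuclear genes of the respiratory chain 1 was called, Cox4i1 (0.73, limma adjusted p = 0.0343), and the median log2 fold change was −0.01. The Cox4i1 call was lost with any 1 library left out. Cox4i1 went the other way with the activation plasmid, with 147 and 110 FPKM in OGD_PARP14 and 287 and 274 FPKM in PARP14. The cause was not tested. Of 10 mitochondrially encoded models limma called none (2 at an unadjusted p under 0.05), with log2 fold changes of −0.53 to 0.50.

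**Figure D3:**
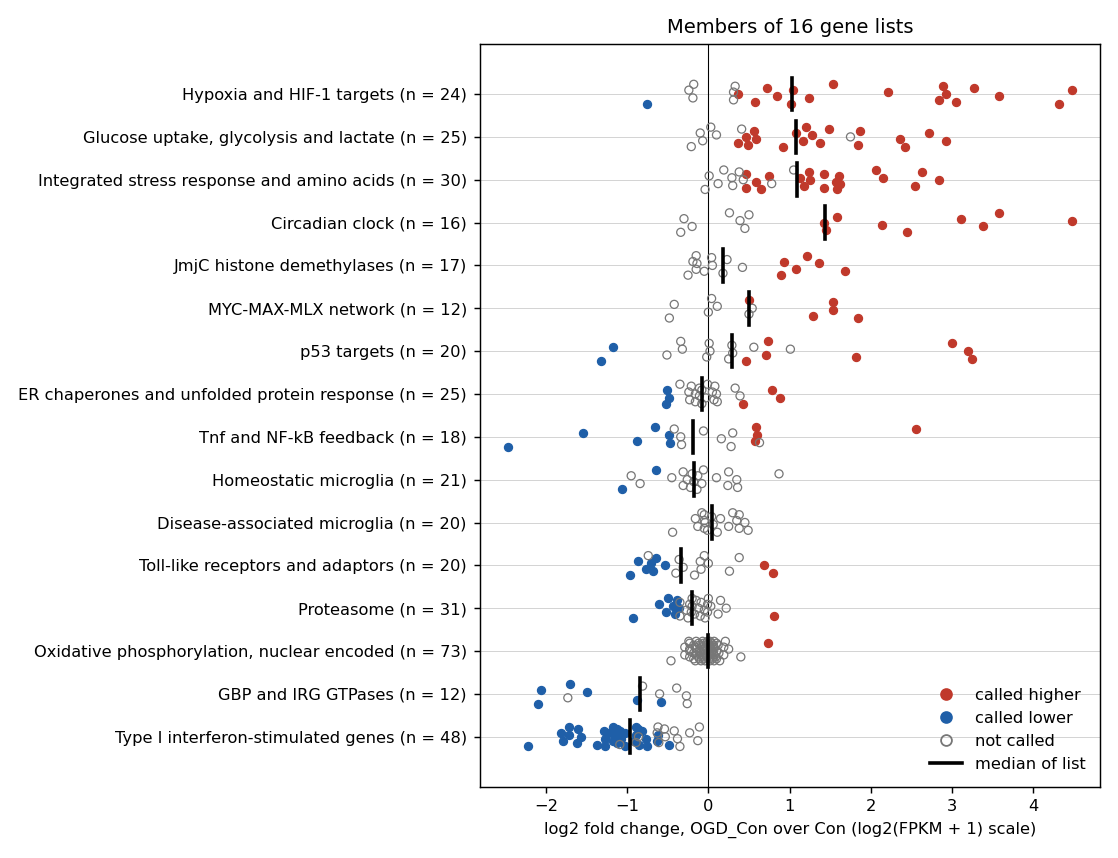
Log2 fold change of OGD_Con over Con for each tested member of 16 gene lists; red points were called higher, blue points lower and open points neither, and a black bar marks the median. The hypoxia, glycolysis, integrated stress response and clock lists lie to the right, with medians of 1.03, 1.08, 1.09 and 1.44, the interferon-stimulated list lies to the left at −0.96, and oxidative phosphorylation sits at −0.01.

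Genes of the integrated stress response and amino acid supply rose together. Of 30 tested members 20 were higher and none was lower, with a median log2 fold change of 1.09. Ddit3, which encodes the stress factor CHOP, had 78.8 and 84.8 FPKM in OGD_Con and 18.0 and 17.4 FPKM in Con, without overlap (2.15, SE 0.08, adjusted p = 0.00344). Atf3 had 429 and 468 FPKM in OGD_Con and 112 and 102 FPKM in Con, the highest level among the called members of this list (2.06, SE 0.09, adjusted p = 0.0043). Slc7a5, which brings large neutral amino acids into the cell, had 20.1 and 20.5 FPKM in OGD_Con and 2.72 and 2.62 FPKM in Con. Its OGD_Con libraries nearly coincided and lay well above Con (2.54, SE 0.07, adjusted p = 0.00272), and its partner subunit Slc3a2 rose by 1.25. Ppp1r15a, the phosphatase subunit that ends the response, rose by 2.84, and the pseudokinase Trib3 by 2.63. Enzymes of serine and one-carbon metabolism rose (Mthfd2 1.59, Phgdh 1.43, Psat1 1.18), as did asparagine synthetase Asns (1.57) and the transfer RNA synthetases Sars (0.75), Aars (0.65), Cars (0.59) and Nars (0.46). Atf4 rose by 1.62, with a wide spread in both groups (172 and 136 FPKM in OGD_Con, 40.4 and 59.4 FPKM in Con). When 1 library was dropped, 11 members were called without OGD_Con replicate 1, 6 without OGD_Con replicate 2, 10 without Con replicate 1 and 13 without Con replicate 2. The C/EBP-ATF core TGATGNAAN was found on either strand in the promoter window of 7 of 17 called members (Aars, Asns, Atf3, Chac1, Nupr1, Pck2 and Trib3), against 2.60% of tested genes and 4.50% of all genes in the promoter table.

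Chaperones of the endoplasmic reticulum and other genes of the unfolded protein response were called in both directions. Of 25 tested genes 3 were higher and 3 lower, and the median log2 fold change was −0.08. The sensor Ern1 (0.88) and the chaperone Dnajb9 (0.78) rose, while the chaperones Sdf2l1 and Dnajc3 fell by 0.51 and 0.49. With any 1 library left out, none of these 6 was called.

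Repressors and output genes of the circadian clock rose. Of 16 tested clock genes 9 were higher and none was lower, with a median log2 fold change of 1.44, the highest among the lists with at least 10 tested members. Bhlhe40, a repressor that is both a clock gene and a HIF-1 target, had 28.4 and 46.5 FPKM in OGD_Con and 0.590 and 0.773 FPKM in Con, the largest rise among the genes named here (4.48, SE 0.25, adjusted p = 0.00537). Its relative Bhlhe41 had 20.8 and 25.3 FPKM in OGD_Con and 1.99 and 1.56 FPKM in Con (3.11, SE 0.14, adjusted p = 0.0043). Nr1d1, the haem-binding repressor REV-ERB alpha, had 19.6 and 26.2 FPKM in OGD_Con and 1.18 and 0.800 FPKM in Con, without overlap (3.58, SE 0.18, adjusted p = 0.00471). Ciart, another repressor of the clock, had 9.70 and 12.1 FPKM in OGD_Con and was near 0 in Con, at 0.201 and 0.0715 FPKM (3.38, SE 0.13, adjusted p = 0.00368). The output factors Dbp (2.44) and Nfil3 (2.14), the kinase Csnk1e (1.59), Rora (1.45) and Nr1d2 (1.42) rose. The activators Clock (0.26) and Arntl (−0.30) and the repressors Per1 (0.50) and Cry1 (−0.20) did not pass the test. With 1 library left out, 8 clock genes were called without OGD_Con replicate 1, 6 without OGD_Con replicate 2, 6 without Con replicate 1 and 8 without Con replicate 2.

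The Ciart promoter is shown because its window holds 3 copies of the E-box, the letters bound by CLOCK with ARNTL and by the BHLHE40 family. Capitals mark CACGTG in the RefSeq GRCm38.p6 window at chr3:95882179-95882478, minus strand.
Ciart: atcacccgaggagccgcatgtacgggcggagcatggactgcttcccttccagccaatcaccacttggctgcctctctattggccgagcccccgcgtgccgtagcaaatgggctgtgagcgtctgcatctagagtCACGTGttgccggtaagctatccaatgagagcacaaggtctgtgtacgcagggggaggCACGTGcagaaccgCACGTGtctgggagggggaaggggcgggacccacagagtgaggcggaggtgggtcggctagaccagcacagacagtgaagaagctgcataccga
Promoters were in the table for 8 called clock genes, and Ciart and Bhlhe41 held an E-box, against 12.5% of tested genes and 8.09% of all genes in the promoter table. Among all genes called higher 16.6% held it, and among those called lower 8.11%. Each E-box also contains the HIF core ACGTG.

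Metallothioneins, small proteins that bind zinc and copper, were among the genes that rose most at high levels. Mt2 had 180 and 183 FPKM in OGD_Con and 13.7 and 12.6 FPKM in Con (3.69, SE 0.08, adjusted p = 0.0025). Mt1 had 109 and 97.0 FPKM in OGD_Con and 19.5 and 20.8 FPKM in Con (2.30, SE 0.10, adjusted p = 0.00394). The zinc exporter Slc30a1 had 19.8 and 20.1 FPKM in OGD_Con and 3.95 and 3.78 FPKM in Con (2.10, SE 0.07, adjusted p = 0.00288). In all 3 the libraries of a group nearly coincided, and they stayed called with any 1 library left out. The metal-sensing factor Mtf1 fell by 0.39, a call that was lost with any 1 library left out, and the other 10 of 14 tested zinc genes did not pass the test. The Mt1 promoter is shown because the metal response element, with core TGCACNC or TGCGCNC, was first described in promoters of this family. Capitals mark the core in the RefSeq GRCm38.p6 window at chr8:94178839-94179138, plus strand.
Mt1: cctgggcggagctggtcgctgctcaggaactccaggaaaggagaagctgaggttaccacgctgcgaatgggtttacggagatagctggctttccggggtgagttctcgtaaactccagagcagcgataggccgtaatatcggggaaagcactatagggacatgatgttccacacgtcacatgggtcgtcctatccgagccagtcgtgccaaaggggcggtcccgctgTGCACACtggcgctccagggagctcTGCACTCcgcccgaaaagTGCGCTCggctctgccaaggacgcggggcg
It holds 3 matches, and Mt1, Mt2 and Slc30a1 all had at least 1, against 40.1% of tested genes and 28.2% of all genes in the promoter table. Among other called list genes that rose, 10 of 14 hypoxia, 14 of 18 glycolysis, 4 of 8 clock and 4 of 17 stress response genes held it.

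Stress genes known as p53 targets moved in part. Of 20 tested 7 rose and 2 fell, with a median log2 fold change of 0.30. Plk2, a kinase of the stress response, had 54.9 and 55.8 FPKM in OGD_Con and 6.10 and 5.95 FPKM in Con (3.00, SE 0.07, adjusted p = 0.0025). Gdf15, a secreted stress cytokine, had 19.9 and 21.5 FPKM in OGD_Con and 1.53 and 1.18 FPKM in Con (3.20, SE 0.11, adjusted p = 0.00288). Gadd45a had 39.3 and 52.4 FPKM in OGD_Con and 4.6 and 3.22 FPKM in Con (3.25, SE 0.21, adjusted p = 0.00653). None of these 3 overlapped between groups, which for Gdf15 and Gadd45a the choice of genes required. Bbc3, which encodes the death-promoting protein PUMA, rose by 1.82, whereas the classical p53 targets Cdkn1a (0.29), Mdm2 (0.30), Bax (0.02) and Ccng1 (−0.02) did not pass the test, and Btg2 and Plk3 fell by 1.32 and 1.17. In the BCL-2 family, which decides on cell death at the mitochondrion, 2 of 13 tested members rose, Bbc3 and the joined model of Bcl2l11 (0.71). In the fits without 1 library, 2 to 5 of the p53 list were called, the fewest without OGD_Con replicate 2, and 0 to 2 of the BCL-2 family.

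Some members of the MYC network and of nutrient sensing rose, and some feedback inhibitors of ERK signalling fell. In the MYC-MAX-MLX network 5 of 12 tested members rose, among them Mnt (1.84), Mxi1 (1.54) and Mxd1 (1.29), which compete with MYC for MAX, while Myc itself did not pass the test (0.54, adjusted p = 0.0691). Among nutrient sensors Rragd, a small GTPase that ties amino acids to mTORC1, had 21.2 and 27.0 FPKM in OGD_Con and 2.23 and 2.14 FPKM in Con, without overlap (2.97, SE 0.14, adjusted p = 0.0043). Its regulators Fnip2 (1.47), Fnip1 (1.12) and Flcn (1.05) and the mTORC1 inhibitor Ddit4 (1.02) rose too, and of 20 tested genes of this list 7 rose and 1, the AMPK subunit Prkaa1, fell by 0.47. The median of the nutrient list was −0.02, the same as over all models, with 10 members positive and 10 negative. Dusp6, the phosphatase that switches off ERK, had 0.685 and 0.550 FPKM in OGD_Con and 11.4 and 15.9 FPKM in Con. Both OGD_Con libraries were far below Con, and it fell by 3.17 log2 units (SE 0.17, adjusted p = 0.00537), the largest fall among called genes that met the level threshold and were not predicted genes. Of 10 tested ERK feedback genes Dusp6, Dusp16, Spred1 and Spred2 fell, and Dusp4 (0.66) and Dusp10 (0.40) rose. Trib1, which steers C/EBP factors to degradation, fell by 1.94 while its relative Trib3 rose. In fits of 3 libraries, 1 to 3 of the MYC network, 1 of the nutrient sensors and 0 to 2 of the ERK feedback genes were called, with 1, 1 and 0 without OGD_Con replicate 2.

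Receptors and ligands of immune cell migration changed by large amounts in both directions. Cxcr4, the receptor for CXCL12, had 75.2 and 75.7 FPKM in OGD_Con and 7.65 and 4.24 FPKM in Con (3.51, SE 0.26, adjusted p = 0.00763). Ccrl2, an atypical receptor that presents chemerin, had 39.5 and 52.1 FPKM in OGD_Con and 2.12 and 1.68 FPKM in Con (4.0, SE 0.17, adjusted p = 0.00394). Fpr1, the receptor for bacterial formyl peptides, went the other way, with 244 and 190 FPKM in OGD_Con and 478 and 508 FPKM in Con (−1.19, SE 0.14, adjusted p = 0.0171), and the complement receptor C5ar1 fell by 1.02. Of 10 tested chemoattractant receptors 3 were higher and 2 lower. Among 12 tested chemokines Ccl3 rose to 565 and 663 FPKM in OGD_Con, against 275 and 257 FPKM in Con (1.20, SE 0.11, adjusted p = 0.011), and the monocyte attractants Ccl7 and Ccl12 fell by 2.32 and 0.74. Ccl4 (0.53, adjusted p = 0.063) and Cxcl2 (1.05, adjusted p = 0.0996) did not pass the test. When 1 library was dropped, 1 to 2 receptors and 0 to 2 chemokines were called.

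Tnf, the leading inflammatory cytokine of microglia, fell. It had 11.4 and 9.13 FPKM in OGD_Con and 58.6 and 63.7 FPKM in Con. The groups were far apart (−2.47, SE 0.13, adjusted p = 0.00494), and Tnf stayed called with any 1 library left out. Nfkbia, the inhibitor that NF-kB itself induces, had 33.0 and 26.2 FPKM in OGD_Con and 85.4 and 89.3 FPKM in Con (−1.54, SE 0.13, adjusted p = 0.00952). Cd83, an activation marker, moved against them, with 82.8 and 65.0 FPKM in OGD_Con and 13.4 and 10.1 FPKM in Con (2.56, SE 0.19, adjusted p = 0.00763). Of 18 tested genes of Tnf and NF-kB feedback 4 rose and 6 fell. The subunit Rela (−0.66), Bcl3 (−0.88), Nfkbiz (−0.49) and the adhesion molecule Icam1 (−0.47) were among those that fell, and Relb (0.59) and Nfkb2 (0.57) of the non-canonical arm were among those that rose. The other cytokines were mixed, with Osm (1.52), Tnfsf9 (1.28) and Il1a (1.30) higher, the anti-inflammatory Il10 lower by 1.52, and Il1b not past the test (−0.53, adjusted p = 0.171). Of 5 tested SOCS genes, which damp cytokine receptors, Socs3, Socs5 and Socs7 fell by 1.06, 0.54 and 0.46. With 1 library left out, 1 to 3 members of the NF-kB list, 0 to 3 of the other cytokines and 0 to 1 of the SOCS genes were called.

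Interferon-stimulated genes fell as a group. Of 48 tested models 34 were lower and none was higher, all 48 had a negative log2 fold change, and the median was −0.96. In 43 of the 48 both OGD_Con libraries were below both Con libraries, against 36.1% of all models tested. Isg15, the ubiquitin-like protein that gives the group its name, had 118 and 98.4 FPKM in OGD_Con and 294 and 237 FPKM in Con, without overlap (−1.28, SE 0.15, adjusted p = 0.0171). Eif2ak2, the RNA-sensing kinase PKR, had 12.1 and 11.1 FPKM in OGD_Con and 43.0 and 38.0 FPKM in Con (−1.71, SE 0.10, adjusted p = 0.00611). Trim30c had 3.62 and 3.43 FPKM in OGD_Con and 15.3 and 14 FPKM in Con (−1.79, SE 0.09, adjusted p = 0.00455), and it alone of the named interferon genes stayed called with any 1 library left out. The joined model of Ifit3 and Ifit3b had 70.0 and 54.5 FPKM in OGD_Con and 241 and 177 FPKM in Con (−1.72, SE 0.21, adjusted p = 0.017). Sensors of viral RNA were among those that fell (Ddx58 by 1.18, Ifih1 by 1.07, Dhx58 by 0.76), as was the signal carrier Stat2 (by 1.16). Irf7 (−0.13), Irf9 (−0.35) and Bst2 (−0.23) did not pass the test. The model listed as Ifit2 is a short locus at chr19:34574936-34575434 on the minus strand, opposite to the annotated gene, so its fall by 2.22 may not be that of the Ifit2 messenger RNA. The call count rests on all 4 libraries, with 5 members called without OGD_Con replicate 1, 2 without OGD_Con replicate 2, 5 without Con replicate 1 and 20 without Con replicate 2.

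The GTPases that interferon induces against intracellular pathogens fell too. Of 12 tested models of the GBP and IRG families 6 were lower and none higher, all 12 had a negative log2 fold change, and the median was −0.84. Iigp1 had 2.54 and 1.71 FPKM in OGD_Con and 14.7 and 10.2 FPKM in Con (−2.10, SE 0.22, adjusted p = 0.0147). The joined model of Igtp and Irgm2 had 27.0 and 23 FPKM in OGD_Con and 91.7 and 75.7 FPKM in Con (−1.70, SE 0.14, adjusted p = 0.00928), and Irgm1 fell by 1.49. Gbp2 (−0.26) and Gbp3 (−0.27) did not pass the test. Several of these genes are close copies of each other, so fragments may have been split between them. In the fits without 1 library, 1 member was called without OGD_Con replicate 1, 0 without OGD_Con replicate 2, 1 without Con replicate 1 and 4 without Con replicate 2.

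The Isg15 promoter is shown because it holds overlapping copies of the interferon-stimulated response element, the letters bound by complexes of STAT2 and IRF9. Capitals mark its core, GAAA, any 2 bases and GAAA again, on either strand, in the RefSeq GRCm38.p6 window at chr4:156200769-156201068, minus strand.
Isg15: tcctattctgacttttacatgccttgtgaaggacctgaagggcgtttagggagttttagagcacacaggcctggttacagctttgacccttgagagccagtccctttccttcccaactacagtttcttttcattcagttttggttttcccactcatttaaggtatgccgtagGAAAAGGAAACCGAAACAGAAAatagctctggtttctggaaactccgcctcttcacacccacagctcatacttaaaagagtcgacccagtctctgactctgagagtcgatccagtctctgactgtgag
Promoters were in the table for 25 called interferon-stimulated genes, and 14 of them (56.0%) held this core, as did all 6 of the called GBP and IRG genes, against 4.14% of tested genes and 3.99% of all genes in the promoter table. Among all genes called lower 7.12% held it, and among those called higher 3.38%. Both lists hold genes known to be induced by interferon, and the share among their members that were not called was not computed. The counts therefore describe the letters in these promoters and not why the genes fell.

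**Figure D4:**
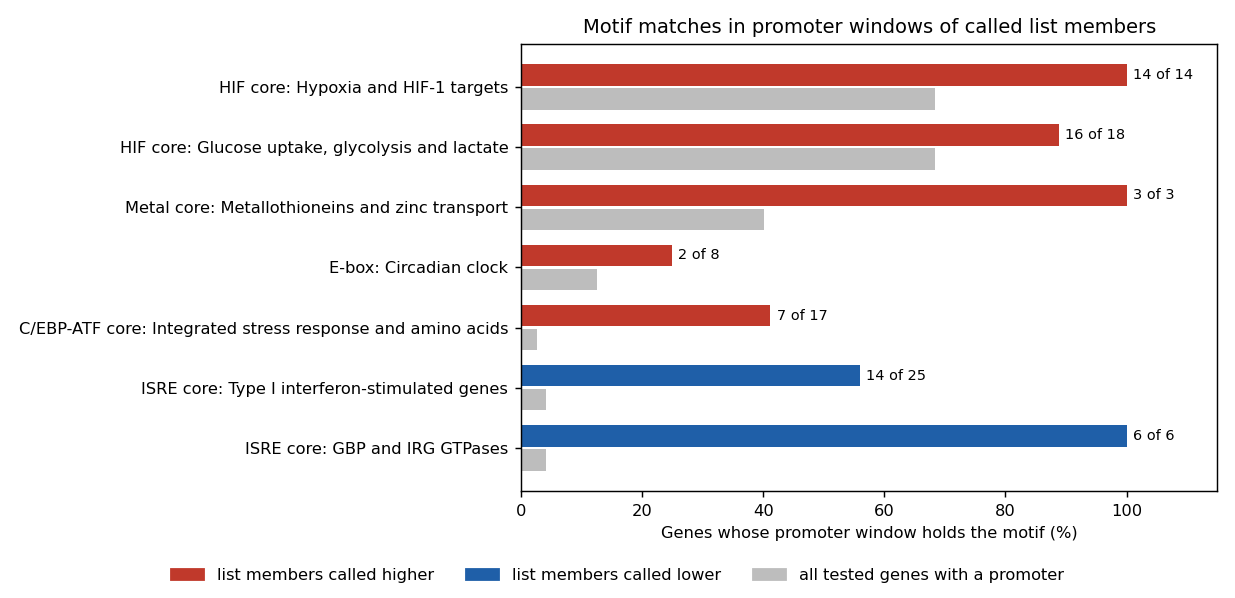
Share of genes whose 300-base promoter window holds the named motif on either strand, for called members of 7 gene lists (red where higher in OGD_Con, blue where lower) above the share over all tested genes with a promoter (grey). The interferon motif was in 14 of 25 and 6 of 6 called members against 4.14% of tested genes, while the HIF core was in 14 of 14 and 16 of 18 against 68.4%. Shares among list members that were not called were not computed.

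More genes of innate sensing were called lower than higher. Of 20 tested Toll-like receptors and adaptors 7 were lower and 2 higher. Tlr2 had 34.1 and 30.7 FPKM in OGD_Con and 60.0 and 60.4 FPKM in Con (−0.87, SE 0.09, adjusted p = 0.0131), and Tlr3 (−0.97), Tlr13 (−0.64), Cd14 (−0.68), Tirap (−0.71), Irak4 (−0.53) and the joined model of Myd88 (−0.77) fell as well. Tlr9, which senses DNA, rose by 0.80, and the joined model of Ticam2 by 0.69. In the inflammasome list 3 of 11 fell and none rose (Pycard by 0.81, Nlrc4 by 0.74, Gsdmd by 0.37). The Fc receptors and Syk pathway had 5 of 17 lower and none higher, among them Fcgr1 (−0.76) and Fcgr4 (−0.63), and complement had 3 of 13 lower, among them C5ar1 and Cd55. With any 1 library left out, none of the Toll-like, Fc receptor or complement genes and at most 1 of the inflammasome genes was called.

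Of the listed models of MHC class I genes, H2-K2 changed most. H2-K2 had 41.6 and 47.1 FPKM in OGD_Con and 1.57 and 1.33 FPKM in Con (4.21, SE 0.11, adjusted p = 0.0025). H2-K2 is nearly identical in sequence to H2-K1, so the source of the H2-K2 fragments is uncertain. The main H2-K1 model did not pass the test, with 469 and 375 FPKM in OGD_Con and 448 and 410 FPKM in Con. A second H2-K1 model, on the strand opposite to the annotated gene, was called higher (2.93, SE 0.23, limma adjusted p = 0.00901). It had 5.13 and 8.66 FPKM in OGD_Con and 0.0233 and 0 FPKM in Con. Of 22 tested genes of the class, Psmb10 and Nlrc5, the transactivator of MHC class I, fell by 0.51 and 0.66, and B2m (0.11), Tap1 (−0.22) and H2-D1 (0.14) did not pass the test. In fits of 3 libraries, 1 to 2 of the 22 were called, H2-K2 in every case. Of 3 tested MHC class II genes limma called none (1 at an unadjusted p under 0.05).

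Genes that define microglia are given as values. Of 21 tested homeostatic genes 2, Tmem119 and Mertk, fell and none rose, beside 9.28% of all models called lower and 8.64% called higher. Tmem119, a surface marker of resident microglia, had 5.23 and 5.22 FPKM in OGD_Con and 12.1 and 11.8 FPKM in Con (−1.06, SE 0.07, adjusted p = 0.00738). Mertk, a receptor for engulfing dead cells, fell by 0.65. P2ry12 (0.25) and Csf1r (−0.31) did not pass the test, nor did Cx3cr1 (−0.95, adjusted p = 0.058). Of 20 tested genes of the disease-associated state, including Apoe (−0.01), Trem2 (−0.16) and Spp1 (−0.05), limma called none (5 at an unadjusted p under 0.05), and their log2 fold changes ran from −0.44 to 0.49. Among scavenger receptors Stab1 (−0.76), Scarb2 (−0.77) and Lrp1 (−0.51) fell, 3 of 12. The Tmem119 call was kept only without Con replicate 2, and the Mertk call was lost with any 1 library left out. The scavenger receptor calls were lost with any 1 library left out.

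Lysosomal and autophagy genes are given as values. Of 39 tested lysosome and V-ATPase genes 5 rose and 1 fell, beside 8.64% of all models called higher and 9.28% called lower. Gla, the lysosomal alpha-galactosidase, rose by 1.24 and the proton pump subunit Atp6v1a by 0.75, while Gusb fell by 0.89. Sqstm1, the autophagy receptor p62, had 255 and 251 FPKM in OGD_Con and 139 and 133 FPKM in Con (0.89, SE 0.08, adjusted p = 0.00952). Of 31 autophagy genes 6 rose and 2 fell, Atg101 by 0.95 and Ulk2 by 0.53. Oxidative stress genes had 3 of 18 higher, Sqstm1, Nfe2l2 (0.72) and the haem oxygenase Hmox1 (0.73), and G6pdx lower by 0.51. Insig1, which holds back sterol synthesis, rose to 46.5 and 84.1 FPKM in OGD_Con, against 8.11 and 13.4 FPKM in Con (2.47, SE 0.37, adjusted p = 0.0243), the only call among 22 cholesterol genes, of which 20 had a positive log2 fold change. When 1 library was dropped, at most 1 gene of the lysosome and oxidative stress lists was called and none of the autophagy and cholesterol lists.

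Proteasome and ribosomal protein genes moved by small amounts at the median. Of 31 tested proteasome subunits 8 fell and 1, Psmd8 (0.81), rose, with a median log2 fold change of −0.20. Psmd6 had 12.1 and 11.4 FPKM in OGD_Con and 21.9 and 24.6 FPKM in Con (−0.93, SE 0.09, adjusted p = 0.0134). No proteasome call was kept with any 1 library left out. Of 79 cytosolic ribosomal protein genes only Rpl3 (0.38, limma adjusted p = 0.0449) was called, but 77 had a positive log2 fold change. The median was 0.16 and the range −0.12 to 2.53, so the largest rise was not called. In 64 both OGD_Con libraries were above both Con libraries, against 30.8% of all models. Heat shock genes had 2 of 19 higher, Zfand2a (1.36) and Hspa1b (2.28), a near copy of Hspa1a (2.07, adjusted p = 0.0796) with which it may share fragments, and 4 lower, Dnaja1 (−0.99), Hsph1 (−0.77), Chordc1 (−0.68) and Hspa4 (−0.51). With 1 library left out, 0 to 3 heat shock genes were called.

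Several of the largest changes lay in genes outside the lists. Rasd2, a small GTPase of the Ras family, had 6.81 and 12.1 FPKM in OGD_Con and was near 0 in Con, at 0.0403 and 0.0667 FPKM (3.26, SE 0.26, adjusted p = 0.00927). Ch25h, which makes the antiviral sterol 25-hydroxycholesterol, had 6.99 and 4.08 FPKM in OGD_Con and 31.8 and 20.5 FPKM in Con (−2.06, SE 0.31, adjusted p = 0.0248). Tagap, a GTPase-activating protein of immune cells, had 26 and 18.3 FPKM in OGD_Con and 93.6 and 84.1 FPKM in Con (−1.97, SE 0.19, adjusted p = 0.0113). The organic anion transporter Slco4a1 had 3.85 and 3.69 FPKM in OGD_Con and 34.3 and 18.5 FPKM in Con (−2.46, SE 0.30, adjusted p = 0.0172). In each of these 4 genes the groups were apart, and the spread in FPKM was wider in the group with the higher level. That compares FPKM and not the log2 values that were tested.

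Regulatory RNAs and RNA-binding factors changed in both directions. Malat1, an abundant nuclear long noncoding RNA that shares its model with Gm27694, had 7.94 FPKM in each OGD_Con library and 70.8 and 53.2 FPKM in Con (−2.80, SE 0.16, adjusted p = 0.00537). The host transcript of Mir223, F630028O10Rik, had 0.659 and 0.372 FPKM in OGD_Con and 8.10 and 8.94 FPKM in Con (−2.66, SE 0.13, adjusted p = 0.00432), and mature miR-223 itself was not measured by these libraries. Of 11 tested long noncoding RNAs 5 rose, among them Neat1 (0.75) and the small nucleolar RNA hosts Snhg5 (1.24), Snhg12 (0.88), Snhg1 (0.63) and Snhg6 (0.62), and Malat1 and Mir22hg (−1.01) fell. Among 26 mRNA stability factors 4 rose and 5 fell. The poly(A) polymerase relatives went apart, with Tent5c higher by 2.05 and Tent5a lower by 1.51, and the readers of methylated adenosine Ythdf2 and Ythdf1 fell by 0.85 and 0.73. In the fits without 1 library, 0 to 2 of the noncoding RNAs and 0 to 3 of the stability factors were called, none in either list without OGD_Con replicate 2.

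Several smaller families had called members. The RGS list holds RGS proteins, which switch off G proteins, and the G protein subunit Gna15. Of its 10 tested members Rgs1 rose by 2.33, and Gna15 and Rgs19 fell by 1.14 and 0.40. Of 9 glucocorticoid-responsive genes 4 rose, including the EGFR inhibitor Errfi1 (2.43) and Zfp36 (0.97), and Fkbp5 fell by 1.54. Among Kruppel-like factors Klf15 (1.73), Klf11 (1.13) and Klf9 (1.00) rose and Klf2 fell by 0.91, out of 11. The early response genes Ier3, Maff and Atf3 rose out of 10 tested and stayed called with any 1 library left out. Ier3 had 73.5 and 118 FPKM in OGD_Con and 5.21 and 5.33 FPKM in Con (3.91, SE 0.24, adjusted p = 0.00641). In the PARP family of ADP-ribosyltransferases, to which the plasmid's target belongs, Tiparp rose by 2.14 and Parp9, Parp11, Parp12 and the joined model of Parp10 fell by 1.12, 0.84, 0.82 and 0.44, out of 14. P2ry2, a receptor for extracellular ATP and UTP, rose by 1.58, and P2ry6 and the joined model of Pnp fell by 0.49 and 0.38, among 13 tested purinergic genes. Of 8 lysophospholipid signalling genes limma called none (1 at an unadjusted p under 0.05), and Lpar5, in a joined model, had 12.2 and 12.1 FPKM in OGD_Con and 8.87 and 2.24 FPKM in Con (1.22, SE 0.55, adjusted p = 0.188). Without Con replicate 1 limma called 1 gene of this list, Lpar5 (adjusted p = 0.0312), and without any other library none. In further lists, beside 17.9% of all models, the calls were 6 of 26 ribosome biogenesis genes in both directions, among them Gnl3 (1.62) and Bop1 (−0.74), 3 of 13 fatty acid and sterol efflux genes, all higher (Srebf1 0.44, Elovl5 0.39, Abcg1 0.46), 3 of 9 genes of alternative activation, Il10ra (1.10) and Pparg (0.64) higher and Il10 lower, and 1 each of the iron, CSF and MS4A lists. Cell cycle genes had 3 of 21 higher, Cdt1 (1.04), Mcm2 (0.76) and E2f1 (0.46), and Ccnd2 lower by 1.16. In fits of 3 libraries, 1 to 3 glucocorticoid genes, 0 to 2 PARP genes, 1 gene each of the RGS and Kruppel-like lists, at most 1 cell cycle gene and no purinergic gene were called.

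The OGD effect with the control plasmid was then set against that with the activation plasmid, as the difference of both effects in a fit of all 8 libraries. For the model that Parp14 shares with Gm49730, both PARP14 libraries were low (12.2 and 11.5 FPKM) and both OGD_PARP14 libraries high (55.8 and 54.6 FPKM). PARP14 was thus below Con (61.4 and 50.7 FPKM), which for Parp14 would go against what an activation plasmid is made to do. OGD_Con replicate 1, with the control plasmid, was as low (12.5 FPKM), so the low level did not follow the plasmid. The level of Parp14 apart from Gm49730 was not tested. OGD_PARP14 replicate 2 stood apart, with correlations of 0.879 to 0.903 with the other 7 libraries. For example Egln3 had 33.8 and 1.08 FPKM in OGD_PARP14 and 0.765 and 0.708 FPKM in PARP14. Slc2a1 had 88.2 and 11.9 FPKM in OGD_PARP14 and 14.3 and 13.1 FPKM in PARP14. For both genes replicate 1 was at the OGD_Con level and replicate 2 near the level without OGD. Cxcr4 had 78.5 and 80.1 FPKM in OGD_PARP14 and 7.90 and 5.55 FPKM in PARP14, so there both replicates were high. Some other genes were at neither level in replicate 2. Ddit4 had 71.1 and 0.701 FPKM in OGD_PARP14 and 35.7 and 40.4 FPKM in PARP14. Stab1 had 39.4 and 200 FPKM in OGD_PARP14 and 61.1 and 64.9 FPKM in PARP14. What sets this library apart was not tested. By limma 1 of 10794 models (0.00926%) differed between the effects at an adjusted p under 0.05, while 203 passed 0.05 before adjustment. With OGD_PARP14 replicate 2 left out it was 6 models (0.0556%), namely Golph3l, Gm6793, Gm2274, Lcor, Gm12138 and Gm38316. No gene of the lists above was called in either fit. A p that misses the threshold does not show that both effects were alike, and in the fit of 7 libraries only 1 library stands for OGD with the activation plasmid.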

How the data were processed

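RNA was measured in primary mouse microglia by strand-specific sequencing of poly(A) RNA, with unique molecular identifiers in the adapters, per the labels' protocols. The deposited table holds 1 FPKM value per gene model and library. HISAT, StringTie and edgeR are named for these values, without versions and with build mm9, per the submitters' processing notes, but 96.2% of the Ensembl models in the table have the coordinates of GRCm38, which are used here. FPKM is scaled to each library's total, so a gene's share can move when other genes change, and no counts were analysed here. Models without a gene name were left out. The remaining values were tested as log2(FPKM + 1) in the 4 libraries of the comparison, among models with at least 1 FPKM in at least 2 libraries, with limma 3.58.1 (R 4.3.3) and Benjamini-Hochberg adjustment at 0.05; the method was tested on simulated data. With 2 libraries per group the residual degrees of freedom are 2, so the spread of a gene leans on that of all genes. Depth was taken from the steps between low values, and a model of 1 kb at 1 FPKM rests on about 15 fragments. The replicate numbers were not treated as pairs, since the deviations of same-numbered libraries correlated at 0.09.

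Members and gene lists were chosen with earlier results of these data known. Named by rule were the 14 largest called changes per direction with at least 5 FPKM in the higher group and no overlap. Models with only predicted gene names were passed over for these. Also named by rule were up to 4 called members of each list by smallest p, and Parp14 and Lpar5. Other genes named are members of the lists or were chosen after their values were seen. A listed gene with several models is given by its most abundant one, whereas the largest changes were ranked over models, so Filip1l and Ifit1bl1 stand there for a model that is not their most abundant. Besides those said in the text, the models of Aars, Jmjd6, Hif1a, Irf9, Trem2, Spp1, Dnaja1, Rpl3, Neat1, Mir22hg, Gnl3, Srebf1 and several Snhg genes are joined with other names. Of the listed genes, Fos, Ier2, Ifit1 and Ccl2 were among those not analysed here. Alternatives covered the filter, the pseudocount, the scaling, an intensity trend, a replicate block, each left-out library, the 8-library and 7-library fits, a minimum fold change, and the promoter window.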

Additional observations from a re-analysis of the deposited data

Results flagged for a closer look

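Gm6793, a predicted gene on chromosome 8 (112013433 to 112015055, minus strand, GRCm38), was the 1 model whose OGD effect differed between the plasmids in the test of the difference itself with all 8 libraries. It had 72.2 and 69.0 FPKM in OGD_Con and 57.0 and 57.7 FPKM in Con, and 75.0 and 60.5 FPKM in OGD_PARP14 and 6.01 and 5.37 FPKM in PARP14. The effect with the control plasmid minus that with the activation plasmid was −3.06 log2 units (SE 0.19, limma adjusted p = 0.0404), and −3.21 (SE 0.12, adjusted p = 0.00408) without OGD_PARP14 replicate 2. The 2 PARP14 libraries were the low ones, and the other 6 lay between 57.0 and 75.0 FPKM. With the control plasmid alone the log2 fold change of OGD_Con over Con was 0.29 and missed the threshold (adjusted p = 0.0659).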

How the results depend on the processing

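No called model changed sign under any alternative. Where both libraries of a group lie above both of the other, leaving 1 out cannot change the sign. The fits of 8 and 7 libraries give the same OGD_Con over Con fold change as the fit of 4 libraries by construction. Of the 170 named models called, most lost their call in at least 1 fit without 1 library. The counts of 933 higher and 1002 lower models became 490 and 482 (972 in all) with no filter on low values, where 23141 models share the adjustment, 267 and 139 (406 in all) with a minimum log2 fold change of 1, and 29 and 23 (52 in all) in the fit of 8 libraries, whose shared spread includes OGD_PARP14 replicate 2. Without that library they were 1209 and 1413. With 1 library left out, which leaves 1 residual degree of freedom, higher calls ran from 76 to 180, lower calls from 16 to 94 and all calls from 92 to 274. The replicate block gave 720, 692 and 1412; other filters, pseudocounts and scalings kept all counts within 1.5 times. The interferon list had 39 calls under the block, 36 with 7 libraries and 2 with 8. For the difference between the plasmids, limma called 0 models with no filter, a pseudocount of 0.1 or the replicate block (749, 210 and 198 at an unadjusted p under 0.05), and 0 to 3278 with 1 library left out: 3278 without OGD_PARP14 replicate 1, 6 without OGD_PARP14 replicate 2, and 0 without any of the other 6 (139 to 166 at an unadjusted p under 0.05). The cause was not tested. Within 250 bases before the start, the interferon core was in 11 of 25 interferon promoters. There the C/EBP-ATF core was in 6 of 17 stress response promoters, and the metal core in 8 of 14 hypoxia and 12 of 18 glycolysis promoters. The other list counts given were as with 300 bases. The shares over tested genes were lower: 62.5% for the HIF core, 34.0% for the metal core, 10.5% for the E-box, 3.56% for the interferon core and 2.32% for the C/EBP-ATF core. The E-box was then in 14.2% of higher and 7.24% of lower genes, and the interferon core in 6.24% of lower and 3.08% of higher genes. Depth limits genes under 1 FPKM, which rest on fewer than about 15 fragments per kb, and 2 libraries per group limit the precision of all values.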

Other observations

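Genes outside the lists, chosen after their values were seen, also changed by large amounts. The linker histones rose: Hist1h1c had 343 and 229 FPKM in OGD_Con and 43.3 and 53.9 FPKM in Con, and H1f0 had 106 and 58.6 FPKM in OGD_Con and 15.9 and 17 FPKM in Con. Both were apart between groups, with log2 fold changes of 2.51 and 2.19, and their OGD_Con libraries differed from each other more than their Con libraries did. Alkbh5, the oxygen-dependent demethylase of N6-methyladenosine in RNA, had 51.3 and 56.8 FPKM in OGD_Con and 14 and 13 FPKM in Con, a log2 fold change of 1.93. Pdp1, the phosphatase that activates pyruvate dehydrogenase, rose by 2.68, the zinc finger factor Plagl2 by 2.54, the kinase Pim3 by 2.22, the insulin receptor substrate Irs2 by 2.08 and the arginine transporter Slc7a1 by 2.03. Id1 and Id3, inhibitors of DNA binding that BMP signals induce, fell by 1.93 and 1.76, with Id1 at 2.56 and 3.39 FPKM in OGD_Con and 11.7 and 16.8 FPKM in Con. Pml, the scaffold of nuclear bodies, fell by 1.67, the transcription factor Cebpd by 1.62, and Hexim1, which holds P-TEFb inactive, by 1.58.

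Of 16 tested mitochondrial transfer RNA models 9 were called lower by limma and 0 higher, all 16 had a negative log2 fold change, and the median was −0.97. For example, mt-Tl1 had 95.3 and 72.1 FPKM in OGD_Con and 274 and 326 FPKM in Con, without overlap (−1.84). These models are very short, and the libraries were made from poly(A) RNA, so what the values stand for was not tested.

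The deposited table's own pathway annotation, over 242 pathways with at least 20 tested models, gave a description of the same kind without a test. Of 4042 annotated models 8.46% were called higher and 9.40% lower. Glycolysis and gluconeogenesis had 17 of 43 models higher (39.5%) and HIF-1 signaling 18 of 70 (25.7%). The RIG-I-like receptor pathway had 14 of 43 models lower (32.6%) and the influenza A pathway 32 of 107 (29.9%). The NF-kappa B pathway had 16 of 67 models lower (23.9%) and 7 higher (10.4%).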
